A study of Mus musculus with 8 samples.

Results

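The import machinery of mitochondria was examined in ventricles of newborn mice in which *Nae1* was targeted in heart muscle cells. The 24 genes were all protein-coding genes of the count table, which lists 40690 genes, whose symbol is Tomm or Timm followed by a number. The 10 *Tomm* genes are named for the outer membrane and the 14 *Timm* genes for the inner membrane and the space between the membranes. *Nae1* encodes the regulatory subunit of the enzyme that activates NEDD8, a small protein that is attached to other proteins in the way ubiquitin is.

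NAE1CKO mice carried a floxed *Nae1* allele (NAE1Flox) and αMHCCre, a transgene that makes Cre recombinase in cardiomyocytes. CTL mice were littermate controls that the labels call wt, and the sources used here do not give the alleles they carried. The lines were kept in the C57BL/6J background and ventricles were taken at P1, the first postnatal day. RNA of 4 NAE1CKO and 4 CTL ventricles was sequenced, with 1 library for each title. In each group, replicates 1 and 2 have titles that begin with KO-443 or WT-443 (title set A), and replicates 3 and 4 have KO-453 or WT-453 (title set B). The labels do not say what these numbers mean.

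Most mitochondrial proteins are made in the cytosol and have to be imported. Receptors of the TOM complex in the outer membrane (Tom20, Tom22 and Tom70) recognise them and hand them to the channel Tom40. Proteins with a cleavable presequence then pass through the TIM23 complex of the inner membrane and are pulled in by a motor, while carrier proteins are led by small TIM chaperones to the TIM22 complex. The heart holds many mitochondria, and their number and capacity grow around birth.

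Total counts ranged from 16304420 to 18593509 in NAE1CKO and from 13932821 to 18056322 in CTL. The noncoding gene *Gm42418* took 12.8% of the counts in CTL replicate 4 and from 3.09% to 4.62% in the other 7 libraries. *Nae1* had 11.97 ± 1.25 CPM in NAE1CKO, against 23.4 ± 0.771 CPM in CTL (mean ± SD over n = 4 libraries each, as for all such values here). CPM, the unit of all levels here, divides a gene's count by the size of its library after TMM scaling. The 8 cardiomyocyte markers were all detected, as were markers of other cell types, atrial ones among them. Their detection does not check the tissue label, ventricle. The atrial marker *Myl7* ranged from 62.0 to 226.8 CPM in NAE1CKO and from 143.6 to 244.6 CPM in CTL. *Nppa* and *Myl4*, of the same list, had 1355 ± 397 and 859 ± 131 CPM in NAE1CKO, against 371.8 ± 55.85 and 257.5 ± 22.63 CPM in CTL. These are bulk samples, so fewer cells of a type and less RNA per cell cannot be told apart.

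The filter on low counts kept 21 of the 24 import genes, 8 *Tomm* and 13 *Timm*. Genes were compared with edgeR's quasi-likelihood test and called where p, adjusted after Benjamini and Hochberg over all 13622 tested genes, was under 0.05. A total of 4 import genes were called. *Timm21*, *Timm44* and *Tomm40l* fell in NAE1CKO and *Tomm20* rose. This is 3 lower and 1 higher of 21, or 19% in either direction, beside 36.3% of all tested genes in either direction, 17.6% lower and 18.6% higher. The median log2 fold change was 0.03 over the 8 *Tomm* genes and −0.05 over the 13 *Timm* genes, beside −0.00074 over all tested genes. In 6 of the 21 genes, 4 lower and 2 higher, no NAE1CKO library overlapped a CTL library in CPM, and this held for 36.5% of all tested genes. With the additional limit of a fold above 1.5 that the study used, 2 members were called, *Timm21* and *Tomm40l*, both lower, beside 5.56% of tested genes lower and 7.31% higher. These shares are of the fit used here. The study itself reported more genes lower than higher at these limits.

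**Figure D1:**
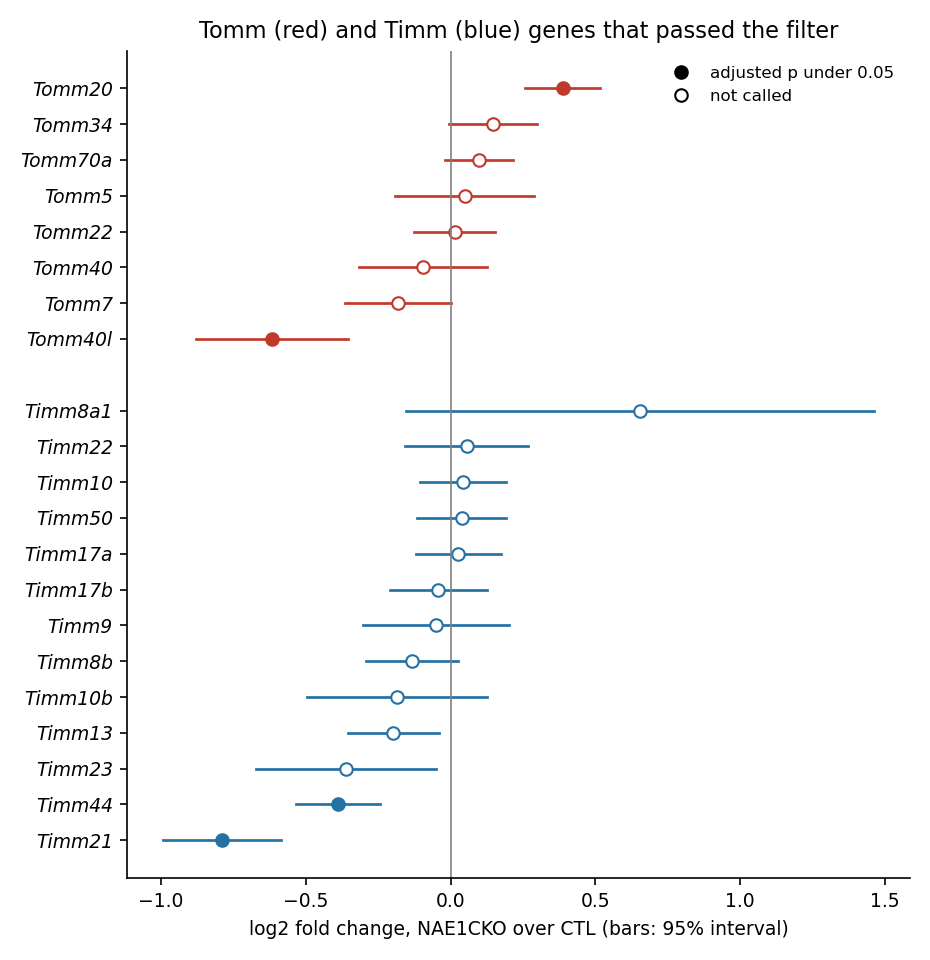
Log2 fold change, NAE1CKO over CTL, with its 95% interval for the 8 Tomm genes (red) and 13 Timm genes (blue) that passed the filter. Filled points are called at adjusted p under 0.05. Tomm20 lies at 0.39, Timm44 at −0.39, Tomm40l at −0.62 and Timm21 at −0.79, and of the open points only the intervals of Timm13 and Timm23 lie wholly on one side of 0.

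Of the 3 receptors of the outer membrane, *Tomm20* rose and the others were not called. *Tomm20*, which encodes the receptor for presequences, had 48.7, 53.0, 57.0 and 53.6 CPM in NAE1CKO libraries 1 to 4, against 40.8, 39.7, 41.2 and 40.7 CPM in CTL libraries 1 to 4. Each NAE1CKO library was above each CTL library. The log2 fold change was 0.39 (standard error, SE, 0.060, 95% interval 0.26 to 0.52, adjusted p = 0.000363), which is 1.31-fold. Up to 66.8% of a *Tomm20* transcript has a near-identical copy in pseudogenes, of which *Gm14494* had 0 to 4 counts and *Gm15365* had 0 in every library.

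*Tomm20* lies on chromosome 8 from 126930667 to 126945844 of GRCm38, on the minus strand. Its promoter is shown because it is the 1 import gene called higher. The sequence is RefSeq's for GRCm38.p6 at chr8:126945872-126946171 and runs from 250 bases before the start to 50 after it. Capitals mark a match to TGACNNNGC, where N is any base, the core of the antioxidant response element.
Tomm20: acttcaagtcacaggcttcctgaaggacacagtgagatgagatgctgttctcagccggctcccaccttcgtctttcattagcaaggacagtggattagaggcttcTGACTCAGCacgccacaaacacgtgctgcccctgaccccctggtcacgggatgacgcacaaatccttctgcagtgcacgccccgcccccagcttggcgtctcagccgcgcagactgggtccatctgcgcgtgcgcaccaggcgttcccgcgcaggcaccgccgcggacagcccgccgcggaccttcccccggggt
The match begins 145 bases before the start. Searched on both strands, these letters are in 12.4% of the 32851 promoters of the RefSeq table and in 1 of the 23 import promoters.

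*Tomm22* and *Tomm70a*, the other receptors, were not called. *Tomm22*, which also organises the complex, had 45.6, 53.2, 51.9 and 46.4 CPM in NAE1CKO and 47.7, 47.6, 48.9 and 51.1 CPM in CTL, and the groups overlapped. Its log2 fold change was 0.01 with a 95% interval of −0.13 to 0.15. Up to 40.1% of its transcript has a near-identical copy in the pseudogene *Gm12906*, with 0 to 1 counts. *Tomm70a*, the receptor for carrier precursors, had 129.5, 135, 140.7 and 129.3 CPM in NAE1CKO and 125.4, 117.5, 130.8 and 125.6 CPM in CTL. Only CTL replicate 3 reached into the NAE1CKO range, and the log2 fold change was 0.10 (SE 0.054, adjusted p = 0.178).

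The channel gene *Tomm40* was not called, and its relative *Tomm40l* fell. *Tomm40* had 96.2, 100.5, 101.3 and 79.4 CPM in NAE1CKO and 99.4, 83.3, 112.4 and 107.7 CPM in CTL, and the groups overlapped, with a log2 fold change of −0.09 (95% interval −0.31 to 0.13). *Tomm40l* encodes a second Tom40-like channel protein that was described in rat as part of the TOM complex. It had 13.3, 14.6, 16.0 and 10.9 CPM in NAE1CKO and 21.03, 17.9, 23.6 and 21.4 CPM in CTL. Each NAE1CKO library was below each CTL library, with a log2 fold change of −0.62 (SE 0.12, 95% interval −0.88 to −0.35, adjusted p = 0.00174), or 0.652-fold. *Tomm40l* lies on chromosome 1 from 171216011 to 171222514 of GRCm38. There, 64.3% of its exon bases overlap *Nr1i3* on the opposite strand, which had 3 to 12 counts per library against 198 to 417 for *Tomm40l*.

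The ratio of *Tomm40l* to *Tomm40* counts within a library does not depend on the scaling. It was 0.145 ± 0.00948 in NAE1CKO and 0.209 ± 0.00746 in CTL, and the groups did not overlap. The difference of the log2 ratios was −0.53 (p = 0.0286 by a two-sided exact permutation test, the lowest value possible with 4 against 4). After Benjamini-Hochberg adjustment over 4 paralog ratios it was 0.114, so the ratio did not pass. A single ratio at the lowest possible p cannot pass this adjustment, so the adjusted value does not weigh the difference.

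The small TOM subunits and *Tomm34* were not called. *Tomm5* had 28.5 ± 3.92 CPM in NAE1CKO and 27.5 ± 3.50 CPM in CTL, and *Tomm7* had 49.3 ± 4.72 CPM in NAE1CKO and 55.9 ± 5.48 CPM in CTL. *Tomm7* had a log2 fold change of −0.18 (adjusted p = 0.112), and without NAE1CKO replicate 2 it was −0.25 with an adjusted p of 0.0394. *Tomm34*, which encodes a cytosolic chaperone partner, had 28.5, 29.0, 28.3 and 32.6 CPM in NAE1CKO and 28.2, 26.3, 25.9 and 26.7 CPM in CTL. The groups did not overlap, but the log2 fold change of 0.15 did not pass (SE 0.070, adjusted p = 0.126).

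In the inner membrane, the calls were in genes of the TIM23 complex and its motor. *Timm21*, a subunit of the TIM23 complex that in human cells also hands newly imported proteins to respiratory chain assembly, had 11.15, 11.1, 9.62 and 9.10 CPM in NAE1CKO and 18.6, 18.6, 16.4 and 17.3 CPM in CTL. The highest NAE1CKO library was far below the lowest CTL library, and *Timm21* had the largest fitted decrease of the 21 genes. Its log2 fold change was −0.79 (SE 0.094, 95% interval −0.99 to −0.58, adjusted p = 5.52e-05), or 0.579-fold. No other gene overlaps its exons.

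*Timm44* encodes the protein that ties the import motor to the channel. It had 78.9, 75.9, 75.1 and 67.1 CPM in NAE1CKO and 92.9, 90.2, 103.1 and 102.6 CPM in CTL, and the groups did not overlap. The log2 fold change was −0.39 (SE 0.067, 95% interval −0.53 to −0.24, adjusted p = 0.000747), or 0.764-fold. *Timm44* lies on chromosome 8 from 4259731 to 4275913 of GRCm38, on the minus strand. Its promoter, at chr8:4275856-4276155 of GRCm38.p6 in RefSeq, is shown beside that of *Tomm20* because both genes were called and in opposite directions.
Timm44: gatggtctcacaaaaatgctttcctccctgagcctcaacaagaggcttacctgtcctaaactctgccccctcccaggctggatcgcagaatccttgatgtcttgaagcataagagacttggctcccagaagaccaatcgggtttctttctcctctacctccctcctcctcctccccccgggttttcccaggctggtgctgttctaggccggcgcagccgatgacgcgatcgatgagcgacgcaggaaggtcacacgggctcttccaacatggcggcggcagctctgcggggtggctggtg
None of the 4 motifs searched is in these letters, which says nothing of the factors that bind them.

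The other TIM23 genes were not called. *Timm17a* had 80.3, 84.3, 82.5 and 74.4 CPM in NAE1CKO and 74.4, 72.3, 84.5 and 84.4 CPM in CTL, with a log2 fold change of 0.03 (95% interval −0.12 to 0.17). *Timm17b*, which encodes the other form of this channel subunit, had 29.9, 26.4, 29.9 and 25.9 CPM in NAE1CKO and 27.3, 29.4, 31.0 and 27.5 CPM in CTL, with a log2 fold change of −0.04 (95% interval −0.21 to 0.12). The groups overlapped for both, and their count ratio was 2.88 ± 0.226 in NAE1CKO and 2.74 ± 0.247 in CTL (p = 0.429 by exact permutation, also 0.429 after adjustment over 4 ratios).

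*Timm50*, the receptor of the TIM23 complex, had 46.7 ± 4.04 CPM in NAE1CKO and 45.5 ± 2.15 CPM in CTL, with a log2 fold change of 0.04. *Timm23*, the channel itself, was listed with few counts, 105, 138, 90 and 97 in NAE1CKO and 110, 108, 156 and 100 in CTL. These are 5.65, 7.25, 5.41 and 5.35 CPM in NAE1CKO and 6.93, 6.64, 8.83 and 8.03 CPM in CTL. NAE1CKO replicate 2 lay within the CTL range and the other 3 below it. The log2 fold change was −0.36 (95% interval −0.67 to −0.05, adjusted p = 0.0662), and without NAE1CKO replicate 2 it was −0.47 with an adjusted p of 0.0230. Up to 100% of a *Timm23* transcript has a near-identical copy in another gene, among them *Gm10273*, *Gm10171* and *Gm10233*, which had 0 counts in every library. The sources used here do not say how reads shared between such copies were counted, so the level of *Timm23* is uncertain.

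**Figure D2:**
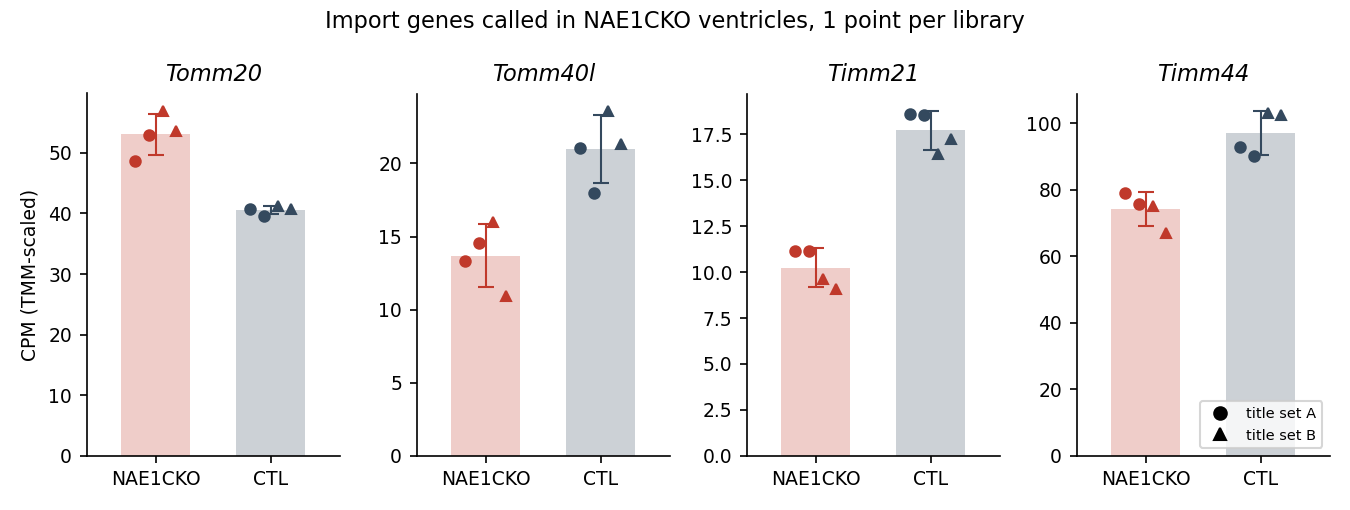
CPM of the 4 called import genes in each library, NAE1CKO (red) left of CTL (grey). Bars are means, error bars SD of 4 libraries, circles title set A and triangles title set B. In each panel all 4 NAE1CKO libraries lie on one side of all 4 CTL libraries.

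The carrier pathway showed no call. *Timm22*, its channel, had 20.7, 20.6, 21.5 and 17.2 CPM in NAE1CKO and 18.01, 17.8, 22.1 and 19.03 CPM in CTL, and the log2 fold change was 0.06 (95% interval −0.16 to 0.27). Of the small TIM chaperones, *Timm10* had 50.8 ± 3.41 CPM in NAE1CKO and 49.4 ± 3.36 CPM in CTL, and *Timm9* had 15.4 ± 1.49 CPM in NAE1CKO and 15.9 ± 2.47 CPM in CTL. Their log2 fold changes were 0.04 and −0.05. *Timm10b*, the small TIM bound to the TIM22 complex, had 3.79 ± 0.498 CPM in NAE1CKO and 4.32 ± 0.276 CPM in CTL, with a log2 fold change of −0.18 (adjusted p = 0.346). It overlaps *Arfip2* and *Gm45799*, and up to 69.7% of its transcript is shared with other genes. Its ratio to *Timm10* was 0.0753 ± 0.0140 in NAE1CKO and 0.0879 ± 0.00835 in CTL (p = 0.143 by exact permutation, 0.190 after adjustment over 4 ratios).

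The other pair of small TIMs, which serve a smaller set of proteins, held the result nearest to the threshold. *Timm13* had 72.9, 74.97, 73.6 and 65.5 CPM in NAE1CKO and 78.4, 75.7, 93.4 and 81.3 CPM in CTL. The groups did not overlap, and the log2 fold change was −0.20 (SE 0.072, 95% interval −0.35 to −0.04, adjusted p = 0.0502). Over the 20 alternative fits that did not split the title sets, the adjusted p lay between 0.0313 and 0.289 and passed in 9, and without CTL replicate 2 the log2 fold change was −0.24 with an adjusted p of 0.0313. Its partner *Timm8b* had 45.0, 48.1, 49.9 and 48.3 CPM in NAE1CKO and 47.2, 50.03, 59.5 and 52.9 CPM in CTL, with a log2 fold change of −0.13 (adjusted p = 0.182).

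*Timm8a1*, whose human counterpart *TIMM8A* is mutated in a deafness and dystonia syndrome, was barely detected, and up to 43.1% of its transcript has a near-identical copy in *Gm9797*, with 0 to 2 counts. It had 27, 27, 13 and 18 counts in NAE1CKO and 8, 22, 7 and 9 counts in CTL. CTL replicate 2 stood within the NAE1CKO range and the other 3 CTL libraries below it. The log2 fold change was 0.65 (95% interval −0.16 to 1.46, adjusted p = 0.193), and without CTL replicate 2 it was 1.14 with an adjusted p of 0.0286. The ratio of *Timm8b* to *Timm8a1* counts was 44.4 ± 15.1 in NAE1CKO and 88.5 ± 47.2 in CTL (p = 0.114 by exact permutation, 0.190 after adjustment over 4 ratios).

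The 3 members that failed the filter had counts near 0. *Tomm20l* had 1 count in NAE1CKO and 0 in CTL over all libraries, *Timm8a2* had 1 count in each group, and *Tomm6* had 7 counts in NAE1CKO and 3 in CTL. *Tomm6* encodes a small TOM subunit, and up to 100% of a transcript of it is shared with other genes. These are *Gm21981* on the same strand, with 3 to 12 counts, and *Usp49* and *Tomm6os* on the opposite strand, with 90 to 157 and 1 to 6. How reads shared between these genes were counted is not known, so the few counts do not give the level of *Tomm6*.

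Levels were compared between genes per kb of exon. *Timm8b* was highest, with 92.3 CPM per kb in NAE1CKO and 101.1 CPM per kb in CTL, followed by *Timm10* with 62.4 CPM per kb in NAE1CKO and 60.6 in CTL, and *Timm13* with 52.3 CPM per kb in NAE1CKO and 59.97 in CTL. *Tomm40* had 20.9 CPM per kb in NAE1CKO and 22.3 in CTL, and *Tomm20* had 10.8 CPM per kb in NAE1CKO and 8.27 in CTL. Of the called genes, *Timm21*, on chromosome 18, had 2.75 CPM per kb in NAE1CKO and 4.76 in CTL, and *Tomm40l* had 2.67 CPM per kb in NAE1CKO and 4.09 in CTL. The level of *Tomm40l* per kb is uncertain, since 64.3% of the exon bases it was divided by overlap *Nr1i3* and the counting of reads there is not known. Summed over the family, *Tomm* genes had 452 ± 26.6 CPM in NAE1CKO and 446 ± 22.4 CPM in CTL, and *Timm* genes had 456 ± 23.3 CPM in NAE1CKO and 499.9 ± 34.6 CPM in CTL.

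**Figure D3:**
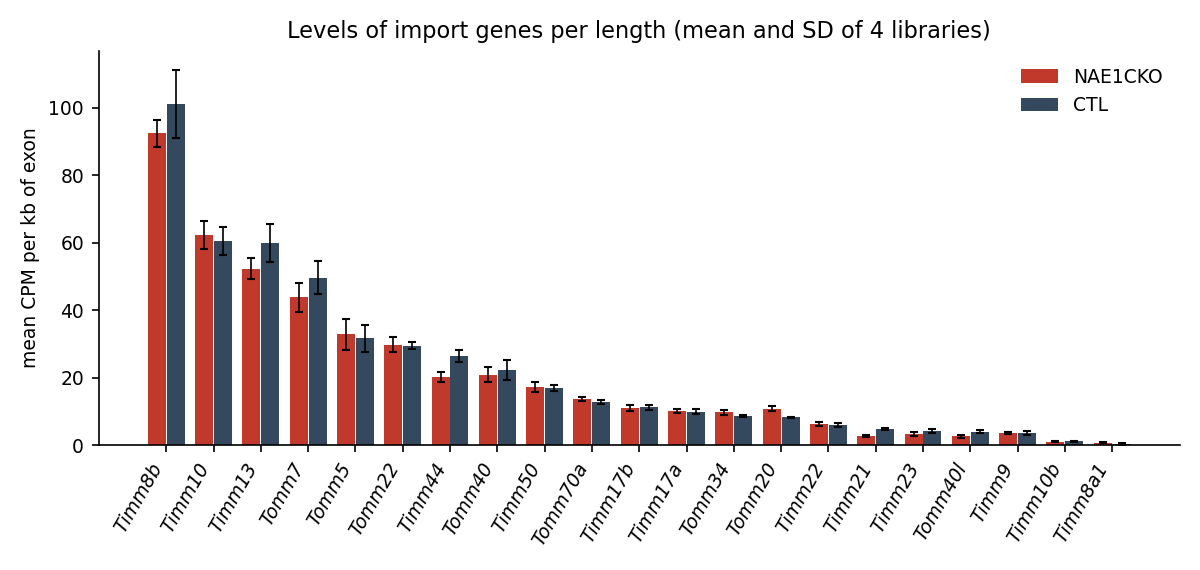
Mean CPM per kb of exon of the 21 tested import genes in NAE1CKO (red) and CTL (dark grey), ordered by the CTL level, with the SD of 4 libraries. Timm8b stands highest, with 92.3 CPM per kb in NAE1CKO and 101.1 in CTL, and Timm8a1 lowest, with 0.817 in NAE1CKO and 0.523 in CTL.

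Fold changes were also taken within each title set, with 2 NAE1CKO against 2 CTL libraries. All 4 called genes were called within set A and within set B. Of all 13622 tested genes, 2123 were lower and 2333 higher within set A, and 1606 were lower and 1723 higher within set B. *Timm21* had log2 fold changes of −0.74 within set A and −0.85 within set B, *Tomm40l* −0.48 and −0.75, *Timm44* −0.24 and −0.54, and *Tomm20* 0.34 and 0.43. In 18 of the 21 import genes the log2 fold change was lower within set B than within set A, and this was so in 50.5% of all tested genes. The median of the 21 genes was 0.07 within set A and −0.11 within set B. The interaction of genotype and title set was called for 0 of 13622 genes by edgeR (0%), and 1307 had an unadjusted p under 0.05. These 1307 of 13622 genes included 5 of the 21 import genes, a larger share. The 5 were *Timm44*, *Timm17a*, *Timm23*, *Tomm40* and *Timm13*, of which *Timm44* had the lowest adjusted p, 0.424. *Timm13* and *Timm23* were called lower within set B, at −0.34 and −0.66, and *Timm13* at −0.06 and *Timm23* at −0.07 were not called within set A. The summed level of the cardiomyocyte markers also differed more in set B, with 62820 and 57440 CPM in NAE1CKO and 89170 and 81360 CPM in CTL, against 62280 and 62750 CPM in NAE1CKO and 72950 and 72730 CPM in CTL of set A. Its part in the fold changes of set B was not tested.

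**Figure D4:**
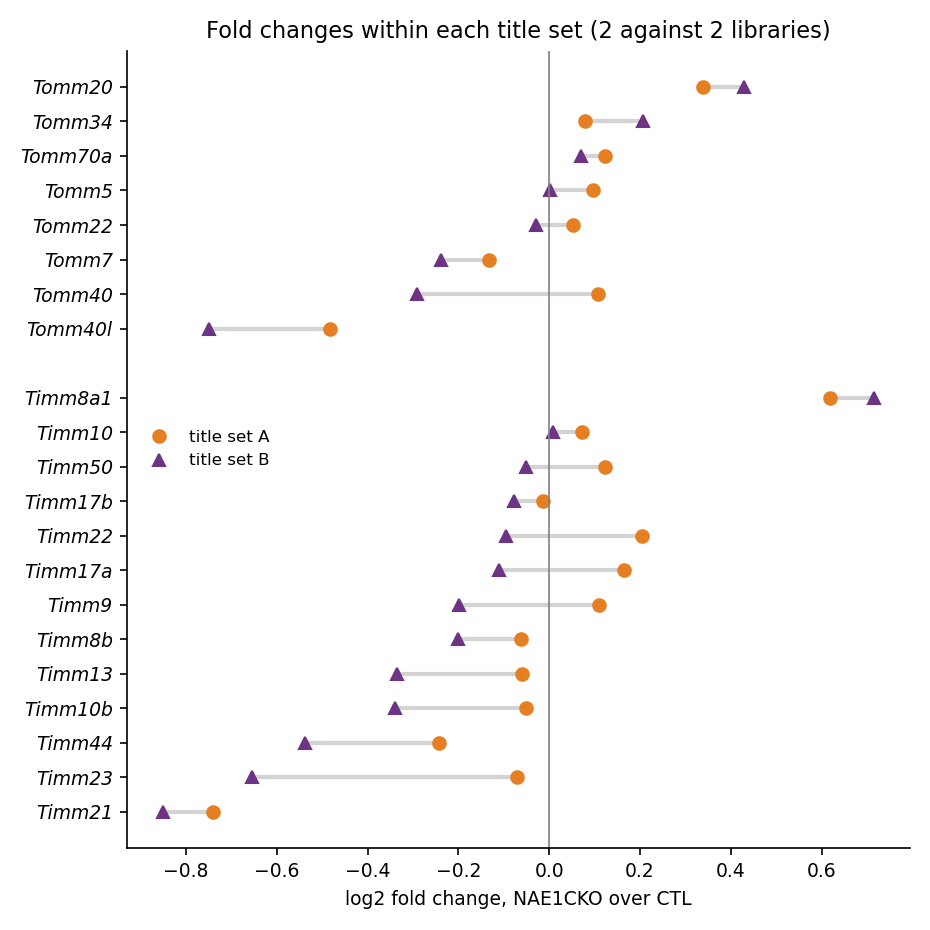
Log2 fold change, NAE1CKO over CTL, of each tested import gene within title set A (circles) and B (triangles), 2 against 2 libraries each. The triangle lies left of the circle in 18 of 21 genes; Tomm20, Tomm34 and Timm8a1 are the exceptions.

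Genes that work with the TOM and TIM complexes were taken from 5 lists with 27 genes, and all were tested. A total of 6 fell (22.2%) and 2 rose (7.41%), beside 17.6% lower and 18.6% higher of all tested genes. The 29.6% in either direction stand beside 36.3% of all tested genes. The median log2 fold change of the 27 partners was −0.12. Of 8 genes of the import motor and TIM23 associates, *Dnajc19* fell, the J protein of the motor whose human counterpart is mutated in a dilated cardiomyopathy with ataxia. It had 22.3, 25.5, 23.3 and 19.2 CPM in NAE1CKO and 29.8, 31.7, 36.1 and 32.2 CPM in CTL, which do not overlap, with a log2 fold change of −0.53 (SE 0.093, adjusted p = 0.000951). It overlaps *Fxr1* on the opposite strand. *Pam16*, its partner in the motor, had 1.36 ± 0.447 CPM in NAE1CKO and 0.730 ± 0.284 CPM in CTL and was not called (log2 fold change 0.89, adjusted p = 0.0535). *Dnlz*, which encodes a chaperone of the motor's Hsp70, was not called either, at 35.8 ± 0.233 CPM in NAE1CKO and 32.2 ± 2.05 CPM in CTL (log2 fold change 0.16, adjusted p = 0.0731), although the groups did not overlap. It overlaps *Gpsm1*, and *Pam16* overlaps *Glis2*, both on the opposite strand.

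Of 7 genes of presequence processing and degradation, 2 fell. *Mipep*, the mitochondrial intermediate peptidase, had a log2 fold change of −0.39 (adjusted p = 0.00315), and *Immp1l*, a subunit of the inner membrane peptidase, −0.55 (adjusted p = 0.00560). *Pmpcb*, the catalytic subunit of the main processing peptidase, was not called at −0.15 (adjusted p = 0.0517). Of 3 genes of inner membrane insertion, *Oxa1l*, an insertase, fell with 174.0, 172.5, 169.9 and 154.0 CPM in NAE1CKO and 214.2, 203.9, 210.5 and 218.0 CPM in CTL. These groups do not overlap, and the log2 fold change was −0.34 (SE 0.055, adjusted p = 0.000512). On the opposite strand, *Oxa1l* overlaps *Slc7a7* and *Mipep* overlaps *Mipepos*.

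Of 6 genes of outer membrane sorting and insertion, *Samm50*, the core of the sorting complex, had a log2 fold change of −0.26 (adjusted p = 0.00707) and *Mtch2*, an insertase of the outer membrane in human cells, −0.16 (adjusted p = 0.0409). *Mtx1*, a metaxin of the same complex, rose by 0.24 on the log2 scale (adjusted p = 0.0232). It overlaps *Thbs3* and *Gm43737* on the opposite strand, and *Samm50* overlaps *Gm49513* on the same strand. Of 3 genes of oxidative import into the intermembrane space, *Chchd4*, the Mia40 oxidoreductase, rose by 0.22 on that scale (adjusted p = 0.0455), although CTL replicate 3 lay above NAE1CKO replicate 2. The calls of *Dnajc19*, *Immp1l*, *Mipep*, *Samm50* and *Oxa1l* held when each library was left out in turn. *Mtx1* lost its call without NAE1CKO replicate 4, CTL replicate 1 or CTL replicate 2 (adjusted p up to 0.0735). *Mtch2* kept its call in 3 of 8 such fits (adjusted p 0.0412 to 0.121) and lost it without NAE1CKO replicates 1, 2 or 4 or CTL replicates 3 or 4. *Chchd4* also kept it in 3 of 8 (adjusted p 0.0197 to 0.129) and lost it without NAE1CKO replicates 1 or 3 or CTL replicates 1, 2 or 4.

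Other nuclear-encoded mitochondrial genes were set beside the import genes by symbol. Of 46 genes with Nduf symbols, 35 were called lower (76.1%, beside 17.6% of all tested genes) and 0 higher (beside 18.6%). Their median log2 fold change was −0.36. These symbols name complex I subunits and assembly factors, but *Ndufa4* (called lower) and *Ndufa4l2* (not called) were taken in by symbol alone. Of 75 tested mitochondrial ribosomal protein genes, 26 were lower (34.7%) and 2 higher (2.67%), with a median of −0.15, and of 41 tested SLC25 carrier genes, 16 were lower (39%) and 3 higher (7.32%), with a median of −0.13. The *Tomm* median of 0.03 and the *Timm* median of −0.05 over all 8 libraries moved with single libraries. The *Timm* median was −0.14 without CTL replicate 1, −0.10 without NAE1CKO replicate 3, −0.082 without CTL replicate 2, −0.028 without NAE1CKO replicate 2, −0.0061 without NAE1CKO replicate 4 and −0.0057 without CTL replicate 3. The *Tomm* median lay between −0.031 without NAE1CKO replicate 3 and 0.071 without NAE1CKO replicate 1. Within title set B the *Timm* median was −0.20, and with library size scaling it was 0.034. The difference between the families was not tested.

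**Figure D5:**
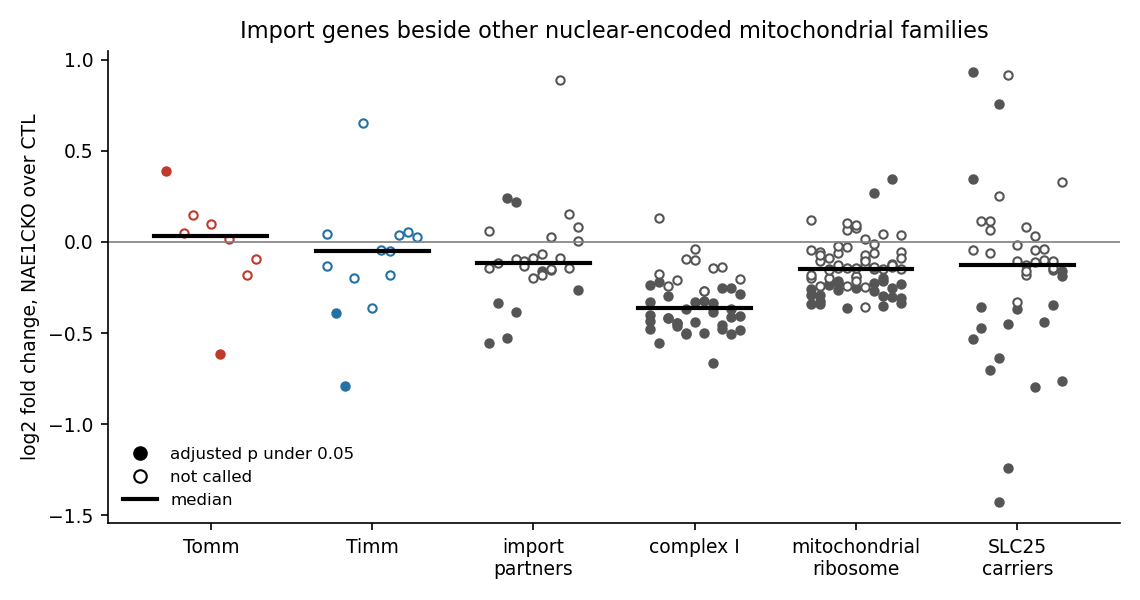
Log2 fold change, NAE1CKO over CTL, of each tested gene of 6 groups, with the group's median as a black line. Filled points are called at adjusted p under 0.05. The medians are 0.03 for Tomm, −0.05 for Timm, −0.12 for import partners, −0.36 for genes with Nduf symbols (complex I), −0.15 for mitochondrial ribosomal proteins and −0.13 for SLC25 carriers.

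Many cell type markers differed by genotype in the same libraries. Their counts stand beside 17.6% lower and 18.6% higher of all tested genes. Of 8 cardiomyocyte markers, 6 were lower (75%) and 0 higher. *Actc1* and *Tnnt2* were not called, with log2 fold changes of 0.06 and −0.11. Among the 6 lower ones are *Myh6*, *Tnni3* and *Myl2*, which the study counts as adult isoforms and reads as signs of maturation. Cell content and maturation were not told apart here. The summed level of the 8 markers was 57440 to 62820 CPM in NAE1CKO and 72730 to 89170 CPM in CTL. All 8 macrophage markers were higher, with 142 to 195 CPM in NAE1CKO and 95.2 to 104.3 CPM in CTL. Of 7 fibroblast markers 4 were lower (57.1%), with 3596 to 4171 CPM in NAE1CKO and 3912 to 4765 CPM in CTL. Endothelial markers had 2 lower and 2 higher of 6 (33.3% each). Smooth muscle and pericyte markers had 3 lower (60%) and 1 higher (20%) of 5. Atrial markers had 2 higher of 5 (40%), *Nppa*, which the study also uses as a stress marker, and *Myl4*. *Myl7*, *Sln* and *Bmp10* were not called, with log2 fold changes of −0.21, −0.64 and −0.80. Summed, the atrial markers had 1833 to 3046 CPM in NAE1CKO and 796.1 to 988.9 CPM in CTL. Erythroid markers had 1 higher of 6 (16.7%), which is below the share of all tested genes. No marker was at 0 in all libraries. The part of these markers in the values of the import genes was not tested.

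Promoters of 21 of the 24 import genes are in the RefSeq table, 23 in all because *Timm22* and *Tomm34* have several starts. Those of *Timm21*, *Tomm40l* and *Tomm7* are not in it. Beside TGACNNNGC, 3 motifs of factors that are known for mitochondrial genes were searched on both strands. The ETS motif CCGGAAGT was in 5 of the 23 promoters (21.7%), those of *Timm10*, *Timm10b*, *Timm23*, *Timm8a2* and *Tomm70a*, and in 3.89% of all promoters. In *Timm10* and *Timm10b* the match lies after the start. The median share of G and C was 58.7% in the import promoters and 52.7% in all promoters. The difference in matches was not tested. The NRF1 motif GCATGCGC was in that of *Timm13* (2.71% of all promoters), and the ERR motif TCAAGGTCA in that of *Timm8b* (0.423% of all promoters). No matches to these motifs overlapped in an import promoter. The 5 genes with the ETS match were not called or not tested. Of the called genes only *Tomm20* and *Timm44* could be searched, so the matches cannot be set against the calls.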

How the data were processed

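For 8 libraries of mouse ventricle the authors deposited one table of raw counts. In the submitters' processing notes stand bcl2fastq, Subread, STAR 2.0.4b and featureCounts 1.4.5. The sources used here do not give genome build, annotation or strand setting, and overlapping genes cannot be told apart. The 574 repeated lines of 41264 were dropped. Groups came from the titles and genotype labels. That replicates are separate animals rests on the titles, and p-values measure only the spread between these libraries.

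Members and gene lists were chosen with earlier results of these data known. In R 4.3.3, edgeR 4.0.16 (filterByExpr, TMM, robust quasi-likelihood test) was fitted on all genes, with limma 3.58.1 and DESeq2 1.42.0 as alternatives. Paralog ratios were compared by exact permutation (scipy 1.17.1). All members are named. Partners are named by the smallest adjusted p, up to 3 per list and up to 2 that did not pass. GENCODE M21 (GRCm38) gave positions, exon lengths and overlaps. BLAST+ 2.17.0 found stretches of at least 75 bases at 97% identity in transcripts of other genes.

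Alternatives were RLE, upper quartile and library size scaling, other tests, filters, gene sets and thresholds, a pseudocount of 1, a shorter promoter window, the title set as a block or alone, and leaving out each library.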

Additional observations from a re-analysis of the deposited data

Results flagged for a closer look

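The highest or lowest library of each group was compared with the other 3 for the CPM of the 21 tested import genes and the 4 paralog ratios, which makes 50 groups, and 2 stood apart. Chance flags about 1 in 20 groups. *Timm23* had 7.25 CPM in NAE1CKO replicate 2, far from the 5.35 to 5.65 CPM of the other 3 NAE1CKO libraries, with a gap of 0.839 of the group's range. *Tomm34* had 32.6 CPM in NAE1CKO replicate 4, and 28.3 to 29.0 CPM in the other 3 (0.835 of the range).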

How the results depend on the processing

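*Tomm20*, *Tomm40l*, *Timm21* and *Timm44* kept their direction and call in each of 22 alternatives, with adjusted p up to 0.00676, 0.0223, 0.00226 and 0.00854. Of 462 values of the 21 genes, 429 kept direction and call, 15 of 5 genes became calls and 18 of 9 genes, none called, changed sign.

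Library size scaling gave 2 *Tomm* genes higher, a *Tomm* median of 0.11, 4 partners higher, and 1532 of all genes lower and 3177 higher, against 2401 and 2537. It shifted the median of all genes by 0.081. Under it *Samm50* and *Mtch2* lost their calls (edgeR adjusted p = 0.0549 and 0.401). RLE, upper quartile and DESeq2 each gave 1 partner higher. Within title set B, 4 *Timm* genes were lower, with a *Timm* median of −0.20, and 1 partner was higher, beside 1606 of all genes lower and 1723 higher. A fold above 1.5 left 0 *Tomm* genes higher, 1 *Timm* gene lower, 0 partners in either direction, and 758 of all genes lower and 996 higher. An adjusted p under 0.01 left 0 partners higher and 1486 of all genes lower.

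Leaving out each library gave 1 to 2 *Tomm* genes lower (2 without NAE1CKO replicate 2), 0 to 1 *Timm* genes higher (1 without CTL replicate 2) and 0 to 3 partners higher (0 without CTL replicate 2, 1 without NAE1CKO replicates 1, 3 or 4 or CTL replicate 1). The log2 ratio of *Tomm40l* to *Tomm40* was −0.57 to −0.51, with an exact permutation p of 0.0571, the smallest for 3 against 4 libraries.

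Values that changed sign were −0.051 within set B for *Timm50*, −0.0020 (upper quartile) and −0.11 (set B) for *Timm17a*, 0.038 for *Timm17b* and 0.034 for *Timm9* (library size), −0.096 for *Timm22* (set B), 0.11 for *Timm9* and *Tomm40* (set A), and −0.015 (upper quartile) and −0.029 (set B) for *Tomm22*. Leaving out libraries gave −0.0036 to 0.076 for *Timm10*, −0.014 to 0.064 for *Timm17a*, −0.0020 to 0.096 for *Timm50*, −0.14 to 0.035 for *Timm9*, −0.025 to 0.050 for *Tomm22* and −0.051 to 0.13 for *Tomm5*. The cause was not tested.

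Deviations of libraries from their group mean were correlated. Between the groups, they correlated from −0.066 to 0.30 within a title set and from −0.22 to 0.13 across title sets. Within a group, the values were −0.39 to 0.095 within a title set and −0.56 to −0.29 across title sets. Subtracting the mean of the same libraries pushes correlations within a group below 0, so their sign alone shows no opposition between replicates. The correlations were mostly higher within title sets, and the main fit left the title set out. Fitted as a replicate block, the title set gave 3 *Timm* genes lower, with *Timm13* added (−0.20, edgeR adjusted p = 0.0428). Of all genes, 2713 were then lower and 2794 higher. In the shorter promoter window, the NRF1 and ARE matches were gone. Low counts limit *Timm23*, *Timm10b*, *Timm8a1* and the members that failed the filter, of which *Tomm6* also shares its sequence with other genes.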
